A study of Mus musculus with 2 samples.

Results

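Hair shaft precursors are keratinocytes of the mouse hair bulb that have begun to make the early hair proteins keratin 35 and desmoglein 4 and have not yet filled with the keratins of the finished shaft. Single-cell RNA sequencing of dorsal skin gave 1 library for vehicle-treated mice (Con) and 1 for mice given testosterone propionate (TP), an androgen ester used to model androgenetic alopecia. Barcodes entered the analysis when they held 200 to 8000 genes and no more than 10% of their counts were mitochondrial. Of these, a cell was counted as a hair shaft precursor when it had a UMI (unique molecular identifier, a counted RNA molecule) of at least 3 of the 8 genes Selenbp1, Dsg4, Krt35, Dclk3, Unc5b, Tiam2, Kcnh1 and Cybrd1. It also had to have the late hair keratins Krt31, Krt33a, Krt33b, Krt34, Krt81 and Krt86 below 50 per 10000 UMIs, the inner root sheath keratins Krt71, Krt25, Krt27 and Krt28 below 150 per 10000 UMIs, and no UMI of Shh. The rule found 8944 cells among 62289 kept cells, 7182 of 42244 in Con and 1762 of 20045 in TP.

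All mice were male C3H/HeN, 7 weeks old at the start and 9 weeks old at harvest, with shaved backs. TP mice received 0.5 mg of testosterone propionate a day under the skin, Con mice the vehicle. Each library pooled the skin of 15 mice, so no animal can be told from another, there is no replicate, and no p-value is given. A library of antibody-treated mice was not analysed here. All intervals below are 95% intervals (exact Poisson intervals of levels, exact conditional intervals of ratios, and Clopper-Pearson intervals of shares) and cover counting error only.

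The libraries differed in depth. Con held 130999979 UMIs in 45709 barcodes and TP 166929585 UMIs in 25931 barcodes. The median hair shaft precursor had 2990.5 UMIs in Con and 9165 in TP, against 2162 and 5166 in all kept cells. A rule that counts detected genes reaches further into weakly expressing cells at greater depth, so results were also computed in cells of 3000 to 8000 UMIs and in cells thinned to a fixed number of UMIs. Of the barcodes, 303 occurred in both libraries, and 2 of these were members in both.

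In a growing follicle, matrix cells around the dermal papilla divide, leave the cycle and move upward into concentric layers. The central layers form the hair shaft (medulla, cortex and cuticle) and the outer ones the inner root sheath that moulds it. WNT signals read by the transcription factor Lef1, BMP signals and the homeobox factor Hoxc13 are known to drive the switch from matrix cell to shaft cell, and hair keratins appear in a fixed order, Krt35 among the earliest.

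The genes of the rule describe the members and support nothing further. Krt35, an acidic hair keratin (chromosome 11, 100092192-100096224, GRCm38), had a UMI in 81.6% of members in Con and 75.4% in TP. Its level was 994.5 CPM (UMIs of the gene per 1000000 UMIs) in Con and 674.9 in TP, against 167.1 and 36.6 in all other kept cells. Dsg4, the desmosomal cadherin of the shaft, had a UMI in 45.7% and 44.7% of members and a level of 219.5 and 115.9 CPM. Tiam2, a Rac exchange factor, and Kcnh1, a voltage-gated potassium channel, were found in 80.5% and 74.6% of members in Con and in 90.4% and 75.7% in TP. Unc5b, a netrin receptor, was found in 68.9% and 80.2%. Dclk3, Cybrd1 and Selenbp1 were each found in 30.2% to 40.2% of members in either library. The number of rule genes detected spread widely: 31.8% of members in Con and 34.6% in TP had 3 of them, and 45.9% and 49.2% had at least 5. At least 3 of the 4 precursor markers Selenbp1, Krt35, Dsg4 and Cybrd1 were found in 30.7% of members in Con and 30.1% in TP, so the name does not hold for every cell that the rule took, and hair shaft precursor or member below means a cell chosen by the rule.

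Genes that the rule did not use were also higher in members than in all other kept cells pooled. By the ratio of the level in members to that in all other kept cells, the smaller ratio of the libraries taken, the leading gene was Acsm3, a medium-chain acyl-CoA synthetase, at 12.5-fold in Con and 33.1-fold in TP. Slc27a6, a fatty acid transport protein, followed at 9.88-fold and 17.02-fold, and Pm20d1, which makes N-acyl amino acids, at 9.37-fold and 21.2-fold. Hoxc13, which drives hair keratin genes, was 6.17-fold and 12.4-fold higher in members. Bmp8a, a BMP ligand, was 6.66-fold and 14.6-fold higher, Tgm6, a transglutaminase, 6.39-fold and 19.5-fold, and Uox, urate oxidase, 6.25-fold and 17.3-fold. Krt36, a hair keratin, and Vsig8, an immunoglobulin-domain protein of the hair shaft, were among the 20 leading genes at 5.38-fold and 5.25-fold in Con. Several of these genes were higher still in the 57 and 32 late hair keratin cells, where Vsig8 was 230.1 CPM in Con and 1087 in TP, Krt36 366.3 and 480.1, Bmp8a 226.9 and 123.4, and Hoxc13 340.3 and 466.8. The members were chosen within these same cells, so these ratios describe them and are not tests. They were larger in TP than in Con for 19 of the 20 genes, Serpinb13 being the exception.

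As a gauge of free RNA, levels were taken in endothelial and immune cells, which should lack hair genes. These were non-members with at least 3 markers of endothelial cells, myeloid cells or lymphocytes, 328 in Con and 618 in TP. They made up 0.776% of kept cells in Con and 3.08% in TP. Levels in these cells also hold RNA of their own, and the part of each was not tested. Their median depths were 2039 and 4410 UMIs. After thinning to 1000 UMIs a cell, Hoxc13 had a UMI in 20.9% of members in Con (interval 19.98% to 21.9%) and 22.3% in TP (20.4% to 24.3%), and in 1.60% and 0.829% of endothelial and immune cells. Lef1 had a UMI in 69.5% and 56.5% of members and in 15.97% and 3.81% of the comparison cells. Before thinning, Hoxc13 was found in 47.3% and 65.0% of members. Thinning left out 113 members in Con and 3 in TP. Krt10, a keratin of the upper epidermis, had a UMI in 50.3% and 71.9% of thinned members and in 53.4% and 76.0% of thinned endothelial and immune cells, so its share in members was at the background.

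Markers of other cell types moved with the libraries. At least 3 inner root sheath markers were found in 81.0% of members in Con and 56.8% in TP, at least 3 basal epidermis and outer root sheath markers in 19.99% and 55.8%, and at least 3 upper follicle and sebaceous markers in 8.88% and 38.6%, without thinning. At least 3 suprabasal markers were found in 74.8% and 99.8%, above the 30.7% and 30.1% with 3 precursor markers. The 8 suprabasal epidermis markers summed to 5614 CPM in members in Con and 21107 in TP, and to 7574 and 19652 in endothelial and immune cells. The 6 dermal fibroblast markers summed to 332.4 and 1674 CPM in members and to 258.7 and 567.7 in the comparison cells. At least 3 of 8 dermal papilla markers, among them Corin, Vcan and Rspo3, were found in 10.8% of members in Con and 10.2% in TP. Endothelial, myeloid and lymphocyte markers were low in members, at 8.89, 22.8 and 13.5 CPM in Con and 16.96, 40.9 and 2.04 CPM in TP. The part of these RNAs in the differences below was not tested. A stricter set was therefore followed beside the members, chosen after these values were seen: at least 5 rule genes with a UMI, Krt35 among them, and dermal papilla and dermal fibroblast markers together below 10 per 10000 UMIs. It held 2809 cells in Con and 755 in TP. Markers of other cell types were still found in unlike shares of this set, without thinning. Its median depth was 3212 UMIs in Con and 8808 in TP. At least 3 dermal fibroblast markers were found in 0.854% of its cells in Con and 16.6% in TP. The limit on these markers lets a deeper cell hold more of their UMIs, so these 0.854% and 16.6% cannot be compared. For basal epidermis and outer root sheath markers the shares were 16.7% and 44.9%. Those of upper follicle and sebaceous markers were 9.08% and 40.3%, and those of inner root sheath markers 80.7% and 54.2%. Restricted to 3000 to 8000 UMIs, the members numbered 2859 and 609 and the stricter set 1230 and 293.

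The members were also described by how many rule genes a cell had. Krt35 is among those genes, so its level goes with the number by construction, and in Con the median depth went from 2682.5 UMIs with 3 rule genes to 3954 with 7 or 8. From cells with 3 rule genes to cells with 7 or 8, Krt35 went from 352.0 to 2017 CPM in Con and from 66.2 to 2031 in TP. Hoxc13 went from 109.8 to 320.9 CPM in Con and from 73.7 to 404.2 in TP, and Lef1 from 981.2 to 2032 and from 525.4 to 1422. S100a3, a calcium-binding protein of the hair cuticle, went from 191.2 to 738.2 CPM in Con and from 88.3 to 1874 in TP. Vcan, a matrix proteoglycan of the dermal papilla, went the other way, from 492.6 to 139.4 CPM and from 759.4 to 62.5. Mki67, a marker of dividing cells, went from 548.2 to 321.7 CPM in Con. In TP it stood at 237.2 CPM with 3 rule genes, at 307.9 with 5 and at 146.0 with 7 or 8.

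**Figure D1:**
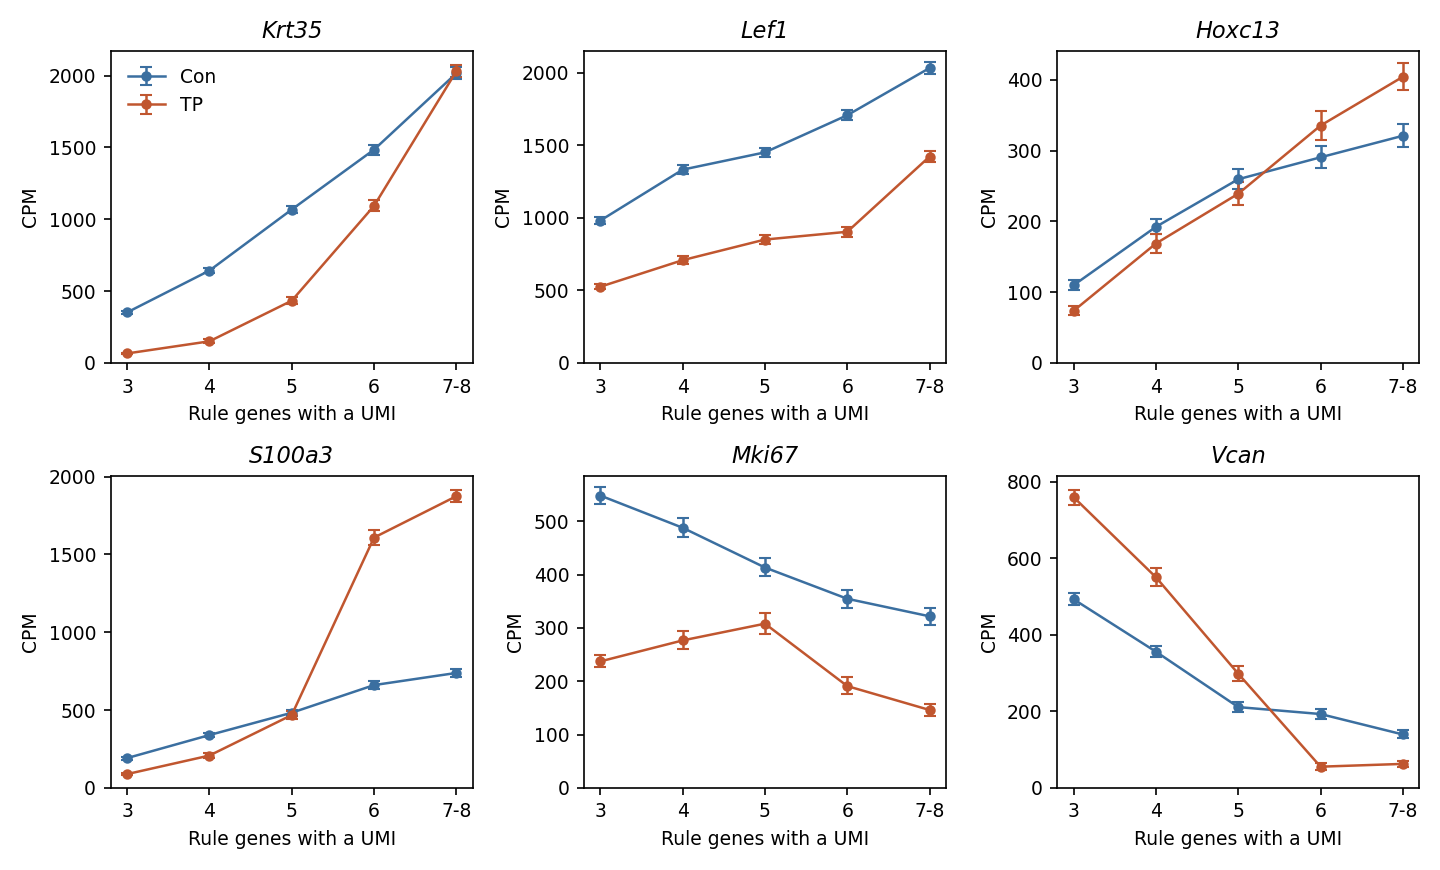
Level in CPM (vertical axis) of 6 genes in members grouped by how many of the 8 rule genes had a UMI (horizontal axis), Con in blue and TP in orange, with exact Poisson intervals. Krt35, Lef1 and Hoxc13 are highest and Vcan is low at 7 or 8 rule genes in both libraries, and S100a3 reaches 738.2 CPM in Con and 1874 in TP.

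Late hair keratins gave a second order inside the limit of the rule. Members without a UMI of them had Krt36 at 15.1 CPM in Con and 7.12 in TP, and those at 5 to under 50 per 10000 UMIs had it at 125.0 and 163.9. Over the same span Lef1 went from 1356 to 2304 CPM in Con and from 763.6 to 2241 in TP, Foxn1, the nude gene needed for shaft formation, from 63.6 to 161.1 and from 33.3 to 210.2, and Mki67 from 469.8 to 251.9 and from 247.1 to 70.1. The median depth of these last cells was 2567 UMIs in Con and 6948 in TP, so their shares of the members are not compared.

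At the edges of the rule, cells on either side were compared as a description. Cells with 2 rule genes, outside, had Hoxc13 at 49.1 CPM in Con and 29.4 in TP, and cells with 3, inside, at 109.8 and 73.7. Members with late hair keratins at 25 to under 50 per 10000 (76 and 20 cells) had Krt31 at 1968 and 1971 CPM, and cells just outside at 50 to under 100 (35 and 17 cells) at 3871 and 4420. Members with inner root sheath keratins at 100 to under 150 per 10000 (82 and 16 cells) had Tchh, trichohyalin, at 3525 and 1581 CPM, and those at 150 to under 200 (37 and 5 cells) at 5490 and 2789. Cells kept out by 1 UMI of Shh (329 and 56) had Krt35 at 435.0 and 210.9 CPM and Edar, the ectodysplasin receptor of the matrix, at 57.5 and 34.8.

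The levels of several genes in members lay between those of neighbouring cells in the bulb. Hoxc13 stood at 63.0 CPM in Con and 57.2 in TP in Shh-positive cells (2027 and 567 cells), at 217.8 and 216.7 in members, and at 340.3 and 466.8 in late hair keratin cells (57 and 32). Mki67 ran the opposite way, at 718.7 and 527.9 CPM in Shh-positive cells, 443.0 and 229.2 in members and 132.9 and 20.004 in late hair keratin cells. Edar was at 90.3 and 90.5 CPM in Shh-positive cells and at 17.4 and 8.59 in members. Cells with inner root sheath keratins (1010 and 165) had Hoxc13 at 20.4 and 13.0 CPM, against 22.7 and 7.00 in endothelial and immune cells. Shh, the late keratins and the inner root sheath keratins chose these groups, and their order is a description.

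Hair shaft precursors made up a smaller share of the TP library. The share of kept cells was 17.001% in Con (interval 16.6% to 17.4%). In TP it was 8.79% (interval 8.40% to 9.19%). TP over Con gave 0.517 (0.491 to 0.545). At matched depth the gap was wider. Thinning left out cells with fewer UMIs than the target. Thinned to 1000 UMIs (36882 cells in Con and 19154 in TP) the shares were 8.68% and 2.56%, a ratio of 0.295. At 2000 UMIs (23326 and 17042 cells) they were 16.99% and 4.62%, a ratio of 0.272. Among cells of 3000 to 8000 UMIs (11125 and 7650) they were 25.7% and 7.96%, a ratio of 0.310. These steps kept unlike parts of the 42244 and 20045 kept cells, and the part of this in the wider gap was not tested. The neighbours in the bulb were also fewer in TP at 2000 UMIs: the ratio was 0.348 for Shh-positive cells and 0.310 for inner root sheath keratin cells, whereas the interval for late hair keratin cells held 1 (58 and 29 cells, ratio 0.684, 0.422 to 1.09).

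A second count was made among the cells of the matrix lineage alone (members, Shh-positive, inner root sheath keratin and late hair keratin cells). Here the members held a like share in both libraries over all UMIs and in cells of 3000 to 8000 UMIs. After thinning the share was lower in TP, with ratio intervals that just held 1. They were 69.9% of these 10276 cells in Con (69.0% to 70.8%) and 69.8% of 2526 in TP (67.9% to 71.5%). The ratio was 0.998 (0.947 to 1.05). At matched depth it was 0.919 (0.834 to 1.01) at 1000 UMIs and 0.926 (0.857 to 1.0003) at 2000 UMIs. Among cells of 3000 to 8000 UMIs it was 1.02. Thinned to 1000 UMIs the shares were 62.1% in Con (60.8% to 63.4%) and 57.1% in TP (53.7% to 60.4%). At 2000 UMIs they were 69.6% (68.3% to 70.7%) and 64.4% (61.7% to 67.1%). A share of barcodes depends on how many other cells each suspension held, which the libraries do not show, so fewer hair shaft precursors and more of other cells cannot be told apart.

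**Figure D2:**
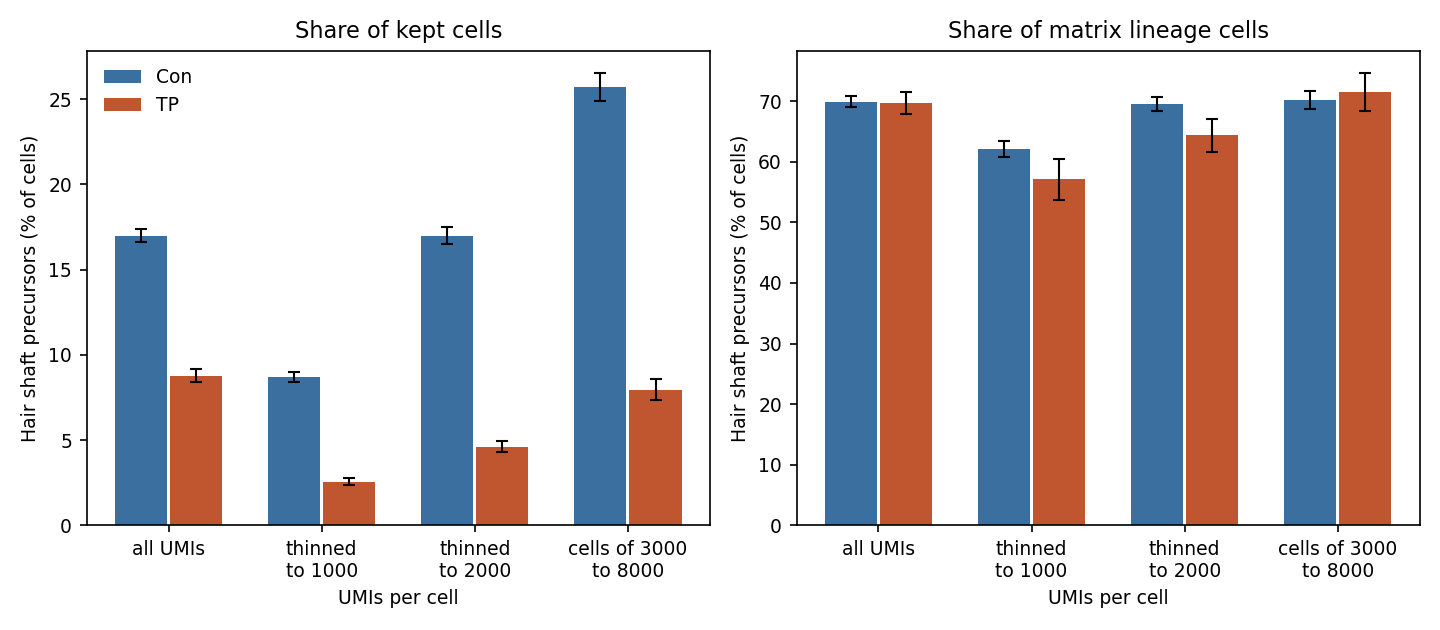
Hair shaft precursors as a percentage of all kept cells (left) and of matrix lineage cells (right) in Con (blue) and TP (orange), with Clopper-Pearson intervals, for all UMIs, for cells thinned to 1000 or 2000 UMIs and for cells of 3000 to 8000 UMIs. The share of kept cells is lower in TP in each pair, and the share of the matrix lineage is between 57.1% and 71.6% throughout.

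Within the members, TP and Con were compared gene by gene as UMIs summed per library, on a log2 scale with 1 UMI added per library. Of 14285 genes with at least 50 UMIs, 869 (6.08%) had a TP level 2-fold or more above Con, and 800 (5.6%) a level 2-fold or more below. The median gene stood at -0.20 on the log2 scale. With TMM scaling, which moved every gene up by 0.19, the split became 1180 higher and 457 lower. In the stricter set 627 of 11827 genes were higher (5.3%) and 643 lower (5.44%). At 3000 to 8000 UMIs 341 of 12055 genes were higher in the members (2.83%) and 247 lower (2.05%), and 175 (1.77%) and 263 (2.66%) of 9872 in the stricter set, with medians of 0.00 and 0.01. Of the 9872 genes tested in all 4 sets of cells, 43 were at least 2-fold higher and 30 at least 2-fold lower in each of them. Log2 values below are given in the order all members, stricter set, members of 3000 to 8000 UMIs and stricter set of 3000 to 8000 UMIs.

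The 12 genes with the largest TP over Con ratio among all members held stress keratins, cornified envelope proteins, fibroblast genes and the transmembrane protein gene Lsmem1, and endothelial and immune cells also carried several of them. Krt6b, a keratin of wounded or stressed epidermis, was 0.166 CPM in Con and 11.1 in TP, and Krt16, its partner in the same response, 5.38 and 74.8, against 39.6 and 158.3 for Krt16 in endothelial and immune cells. Sprr1a, Sprr1b and Lor, proteins of the cornified envelope, were 12.3-fold, 11.6-fold and 11.8-fold higher in TP. In endothelial and immune cells Lor was 10.4 CPM in Con and 130.3 in TP, Sprr1a 45.3 and 181, Sprr1b 2.83 and 80.3, and Krt6b 0 and 38.5. Lum and C7, made by fibroblasts, were 10.6-fold and 20.5-fold higher in members, and Lum was 2.99-fold higher in the stricter set. Fosl1, an AP-1 subunit, Ereg, an EGF-family ligand, Cxcl1, a neutrophil chemokine, and Mmp3, a matrix protease, were 10.5-fold to 16.3-fold higher. At 3000 to 8000 UMIs Ereg was 1.24 and 1.28 CPM (17 and 4 UMIs), a ratio of 1.03 (0.252 to 3.15), and Sprr1a was 2.61-fold, Sprr1b 4.06-fold, Lor 4.07-fold, Lum 3.16-fold, C7 14.2-fold, Krt16 8.12-fold, Fosl1 8.46-fold, Cxcl1 7.77-fold (9 and 16 UMIs) and Mmp3 6.56-fold (1.56 to 31.6, 4 and 6 UMIs) higher, each below its ratio in all members. Lsmem1 ranked second, at 0.299 CPM in Con (9 UMIs) and 9.36 in TP (207 UMIs), or 31.3-fold (16.2 to 69.5). At 3000 to 8000 UMIs Lsmem1 was 0.366 and 18.6 CPM (5 and 58 UMIs), against 4.72 and 7.47 CPM in endothelial and immune cells (5 and 32 UMIs). In the stricter set Hrnr and Cnfn, proteins of the cornified layer, Arc, an immediate-early gene, and Wfdc21, Cstdc5 and Lypd5 joined the 12 largest ratios at 11.9-fold to 18.0-fold, a list drawn after values were seen. In the stricter set of 3000 to 8000 UMIs the ratios were smaller, 1.89 for Hrnr, 3.67 for Cnfn, 2.99 for Arc, 4.18 for Wfdc21, 5.84 for Cstdc5 and 2.72 for Lypd5. In TP endothelial and immune cells Hrnr was 183 CPM, Cnfn 84.7, Arc 30.1, Wfdc21 44.6, Cstdc5 49.5 and Lypd5 98.3. In the same order the TP stricter set had 215.2, 75.4, 46.5, 62.5, 51.4 and 116.1 CPM.

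The 12 genes with the smallest ratio among all members included genes of pigment cells, Kit at 65.3 CPM in Con and 14.1 in TP, Tyr at 25.9 and 6.56, and Oca2 at 34.4 and 7.96. The 6 melanocyte markers together were at 315.2 CPM in Con and 144.9 in TP (ratio 0.460), and at 188.8 and 98.3 in endothelial and immune cells. Spink6, a protease inhibitor, was 6.90 and 0.678 CPM, and Fgf5, the growth factor that ends hair growth, 8.69 and 0.904 CPM. Scube2, a secreted protein that releases hedgehog ligand, was 52.1 and 13.9 CPM. Grm7, St8sia1, Fstl4, Kcnk5, Mir155hg and Slc38a1 completed the list at 0.170-fold to 0.271-fold. Some of these genes were scarce in the stricter set. Spink6 had 5 UMIs there in Con and 1 in TP, a ratio of 0.272 (0.00575 to 2.43). Grm7 had 11 and 1 UMIs there. Mir155hg had 24 and 3, or 1.92 and 0.326 CPM, against 21.0 and 5.02 CPM in members. Kit, Tyr, Oca2, Scube2, Fstl4 and Kcnk5 were at least 2-fold lower in all 4 sets. Each of these was also lower in TP in endothelial and immune cells. The ratio intervals there held 1 for Tyr (0.226 to 1.05) and Kcnk5 (0.387 to 1.44). There Kit was 31.2 and 9.10 CPM, Tyr 11.3 and 5.37, Oca2 20.8 and 2.57, and Kcnk5 13.2 and 9.57. Scube2 was 35.9 and 1.63 CPM there (7 UMIs in TP). Fstl4 was 21.7 and 0.934 CPM there (4 UMIs in TP), against 12.8 and 3.08 in members. The part of free RNA in these falls was not tested.

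The list named early hair keratins holds hair keratins that the rule did not use, and its genes split in 2 directions. The name is only a label, as Krt36 was higher in late hair keratin cells than in members in both libraries. Krt32, an acidic keratin of the cuticle, was 7.53 CPM in Con (6.58 to 8.58, 227 UMIs) and 16.1 in TP (14.5 to 17.9, 356 UMIs). TP over Con was 2.14 (1.80 to 2.54). Its log2 ratios were 1.09, 1.41, 1.197 and 1.44, above 1 in each set, though the sets share cells. In late hair keratin cells Krt32 was 35.7 CPM in Con and 303.4 in TP (11 and 91 UMIs). It was 3.92 and 2.40 CPM in Shh-positive cells (33 and 15 UMIs) and 2.21 and 0.927 in inner root sheath keratin cells (9 and 2 UMIs). Krt36 was 27.5 CPM in Con (25.6 to 29.4) and 16.9 in TP (15.2 to 18.7), or 0.616-fold, with log2 ratios of -0.70, -0.62, 0.24 and 0.25, so its direction turned at matched depth. Krt83, a basic cortex keratin, was 35.4 and 18.1 CPM, lower in TP in each set (-0.97, -0.55, -0.71 and -0.52). Krt82, the basic partner of the cuticle, was 8.53 and 7.96 CPM, with intervals that overlapped (7.52 to 9.64 and 6.83 to 9.23). Krt39 was 7.499 and 3.26 CPM, and its log2 ratios turned from -1.19 to 0.84 at 3000 to 8000 UMIs. Krt84 and Krt40 were at or below 1.36 CPM, under the filter of 50 UMIs, and Krt85 was not analysed here. Summed, the list stood at 87.8 CPM in Con and 62.7 in TP. TP over Con was 0.715 (0.669 to 0.763), and it became 1.10 (0.972 to 1.24) at 3000 to 8000 UMIs. Of 5 genes tested 1 was called higher and 1 lower, beside 6.08% and 5.6% of all genes, and a list this short cannot be read against those shares.

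Krt32 and Krt36 lie beside Krt35 in the type I keratin cluster, and their upstream sequences are shown because Krt32 was higher in TP in each set, while Krt36 was lower in TP among all members and higher at 3000 to 8000 UMIs. Each run is the 250 bases before the start of transcription in RefSeq (GRCm38.p6), read 5′ to 3′ on the minus strand, and capitals mark a LEF1/TCF core (CTTTGA or CTTTGT, either strand) or a TATA box (TATAAA, as written). The Krt36 start lies inside the longer RefSeq gene at 100102012-100109487.
Krt32, chr11:100088270-100088519: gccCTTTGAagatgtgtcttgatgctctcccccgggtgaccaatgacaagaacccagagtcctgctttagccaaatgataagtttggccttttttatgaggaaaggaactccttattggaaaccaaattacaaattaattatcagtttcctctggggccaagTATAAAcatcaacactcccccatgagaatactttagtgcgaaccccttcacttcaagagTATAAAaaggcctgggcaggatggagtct
Krt36, chr11:100105627-100105876: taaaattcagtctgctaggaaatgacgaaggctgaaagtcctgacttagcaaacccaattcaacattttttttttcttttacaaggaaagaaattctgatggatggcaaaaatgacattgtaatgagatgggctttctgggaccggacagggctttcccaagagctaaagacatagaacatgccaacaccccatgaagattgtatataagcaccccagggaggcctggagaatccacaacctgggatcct
Krt32 holds TATA boxes that begin 88 and 29 bases before the start and a LEF1/TCF core at 247 bases, none overlapping another. Krt36 holds neither word in this window. Among 9 hair keratins with an entry, 5 held the LEF1/TCF core and 5 the TATA box, and over all 27025 promoters of this length the shares were 27.7% and 8.12%. Of 11 leading genes of the members with an entry, 2 held the core and none (0) the TATA box. A match is a run of letters and not a bound site.

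Of the 4 hair shaft cuticle markers tested, Krt32 was called higher and Krt39 lower among all members, and Krt32 and S100a3 were called higher in the stricter set. Over all genes 6.08% were called higher and 5.6% lower among members, and 5.3% and 5.44% in the stricter set. Krt82 was not called in any of the 4 sets. Vsig8, Padi3 and Prr9 are not among these markers. S100a3 was 439.4 CPM in Con (432.0 to 447.0) and 735.6 in TP (724.4 to 747.0), which was 1.67-fold higher, and 699.2 and 1424 CPM in the stricter set, a ratio of 2.04 (1.98 to 2.09). Its log2 ratios were 0.74, 1.03, 0.76 and 0.89, while its level in endothelial and immune cells was 93.5 CPM in Con and 47.9 in TP. Vsig8 was 23.7 and 47.7 CPM, a ratio of 2.01 (1.83 to 2.21), and at least 2-fold higher in each set. Padi3, which converts arginine to citrulline in shaft proteins, was 70.5 and 92.2 CPM, with log2 ratios of 0.39, 0.67, 0.89 and 0.84. Prr9, a proline-rich protein, was 246.7 and 784.6 CPM in the stricter set. It was 261.8 and 847.5 CPM in inner root sheath keratin cells, 102.5 and 181.9 in Shh-positive cells and 16.2 and 26.7 in late hair keratin cells, and 90.2 and 80.3 over all other kept cells. Prr9 led the genes of the stricter set that were at least 2-fold above the endothelial and immune level. This was asked only in the library where a gene was higher, and the list was drawn after the values were seen. The log2 ratio of Prr9 was 1.14 in members of 3000 to 8000 UMIs and 0.47 in the stricter set of that depth. In that list Fbp1, a gluconeogenic enzyme, Sptssb, a subunit of the sphingolipid-making complex, Nrcam, a cell adhesion molecule, and Krt72, an inner root sheath keratin, were 2.70-fold to 2.92-fold higher in TP. In the stricter set of 3000 to 8000 UMIs Nrcam was 4.48-fold higher, while Fbp1 was at 1.15-fold (0.892 to 1.48), Sptssb at 1.26-fold (0.711 to 2.14) and Krt72 at 1.45-fold (0.337 to 4.89, 11 and 4 UMIs). Of the 1506 genes above that level 34 were at least 2-fold higher (2.26%) and 168 at least 2-fold lower (11.2%). A gene passed through the library where it was higher, so these counts cannot tell which direction was more common.

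Krt32 was detected in a minority of the stricter set in each library. Cells with a Krt32 UMI numbered 83 of 2809 in Con and 84 of 755 in TP. At 1000 UMIs a cell the share was 0.677% in Con (0.408% to 1.05%) and 1.99% in TP (1.12% to 3.26%), against 0 of 313 endothelial and immune cells in Con, which allows up to 0.958% by the limit of 3 counts and 1.17% by Clopper-Pearson, and 0.166% in TP. S100a3 had a UMI in 24.0% (22.5% to 25.7%) and 34.3% (30.9% to 37.8%) of these thinned cells, and in 9.90% and 7.13% of endothelial and immune cells. In Con the cells with a Krt32 UMI had S100a3 at 4282 CPM and those without at 517.2, and in TP at 4818 and 700.6. Krt82 was 158.6 against 6.88 CPM in Con and 89.7 against 2.50 in TP, and Vsig8 358.4 against 27.9 and 410.2 against 34.3. Prr9, Fbp1, Crym and Padi3 were likewise higher with Krt32 in both libraries. Lef1 was lower with Krt32, 981.2 against 1785 CPM in Con and 459.1 against 1222 in TP, and so was Selenbp1, 117.3 against 392.2 and 56.9 against 281.6. Hoxc13 differed less, 391.5 against 306.5 and 362.5 against 338.6 CPM. The cells were split by a detected UMI, and those with one were deeper (median 5458 against 3170.5 UMIs in Con and 12435 against 8354 in TP).

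**Figure D3:**
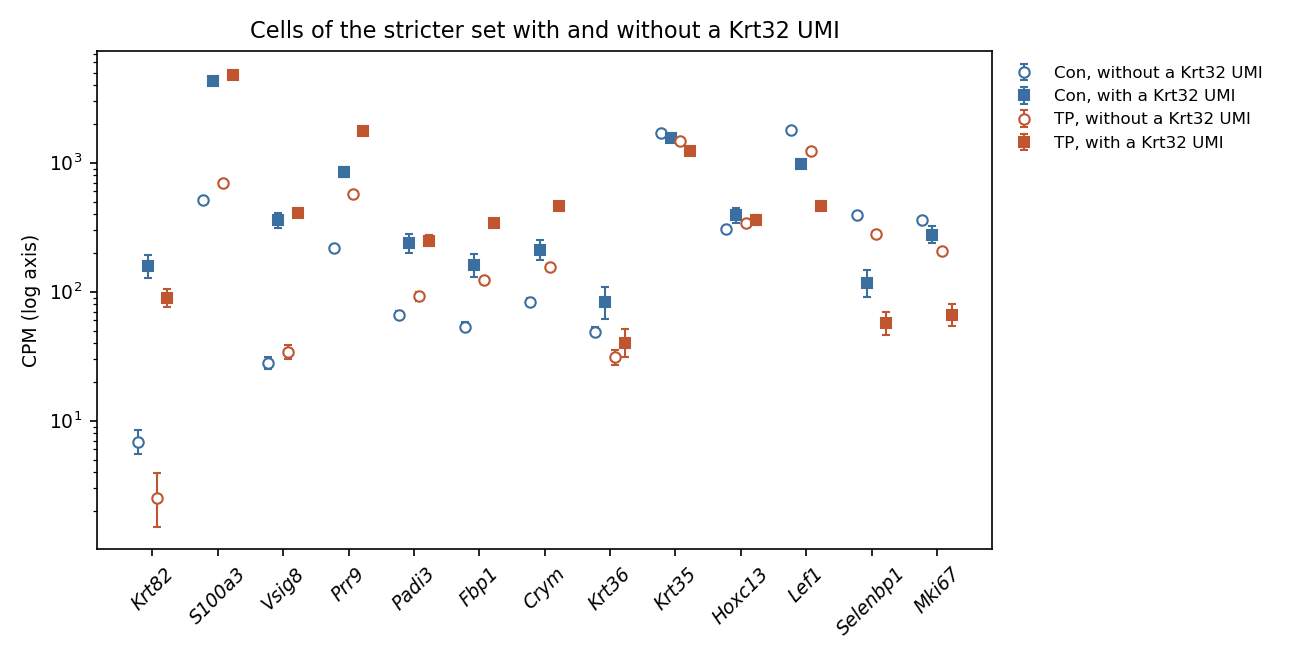
Level in CPM on a log axis of 13 genes in cells of the stricter set with a Krt32 UMI (filled squares) and without (open circles), Con in blue and TP in orange, with exact Poisson intervals. S100a3 stands at 4282 against 517.2 CPM in Con and 4818 against 700.6 in TP, and Lef1 and Selenbp1 are lower in the cells with Krt32.

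Several transcription factors of the shaft stood on different sides of equality at different depths. Hoxc13 was 217.8 CPM in Con (212.5 to 223.1) and 216.7 in TP (210.6 to 222.9), with log2 ratios of -0.01, 0.14, 0.82 and 0.84. Lef1 was 1427 and 837.4 CPM, a ratio of 0.587, with log2 ratios of -0.77, -0.68, 0.50 and 0.59. Foxn1 was 75.3 and 43.1 CPM (-0.80, -0.60, 0.02 and 0.26). Msx2, a homeobox factor that acts through Foxn1, was 74.4 and 57.3 CPM (-0.38, -0.35, 0.19 and 0.25), and Msx1 39.6 and 61.7 CPM, higher in TP in each set (0.64, 0.64, 0.93 and 0.61). Cux1, a homeobox repressor, was 1574 and 728.4 CPM and lower in each set (-1.11, -0.84, -0.55 and -0.39), and so was Dlx1, at 13.2 and 5.52 CPM. Of the 24 transcription factors tested none (0) was called higher and 2 lower among all members, against 2 higher and 0 lower at 3000 to 8000 UMIs, where Sp6, a factor of hair and tooth, and Prdm1, a marker of early shaft and sheath cells, were those higher. Over all genes 6.08% were higher and 5.6% lower among members and 2.83% and 2.05% at 3000 to 8000 UMIs, so 2 of 24 is a count near the background.

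**Figure D4:**
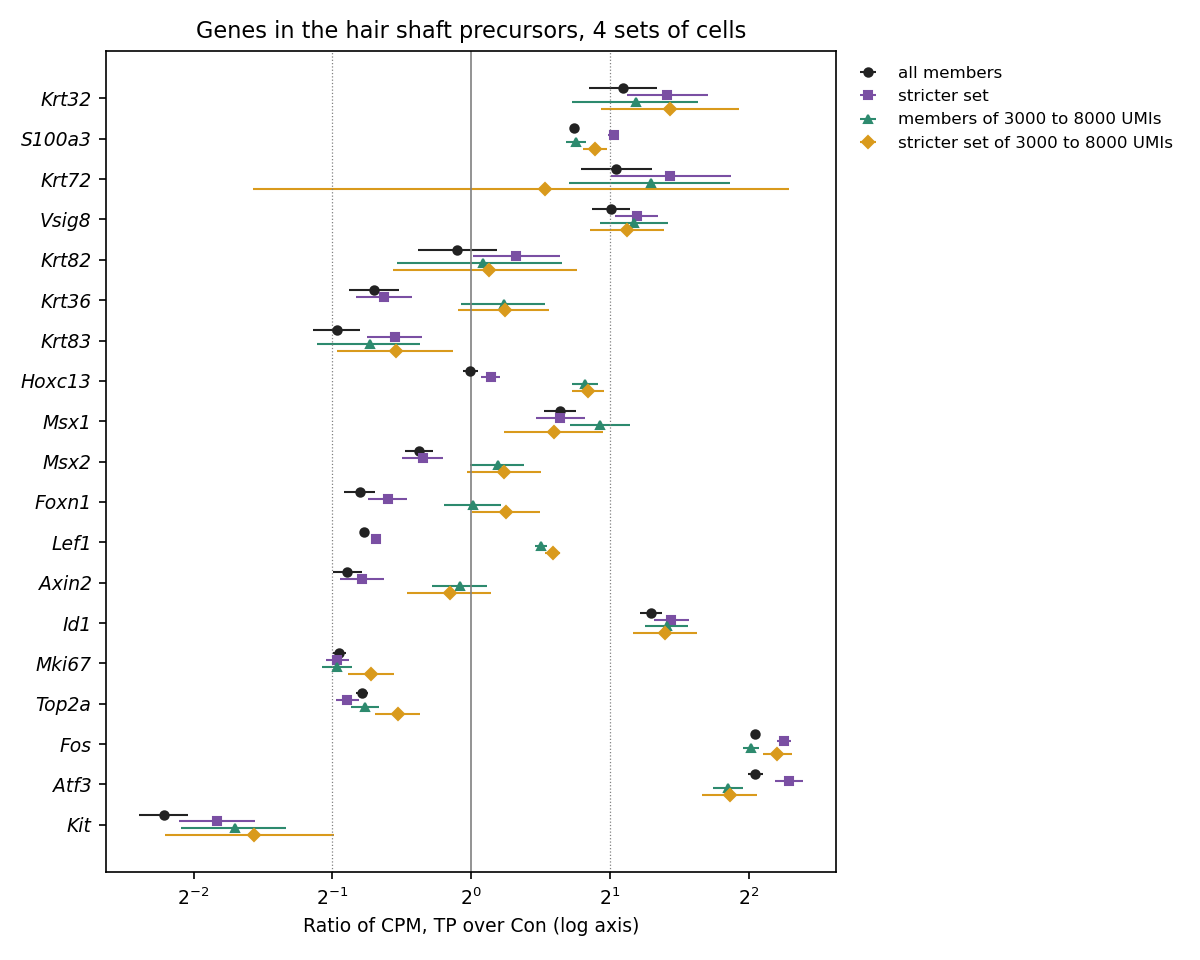
Ratio of CPM in TP over Con on a log axis (horizontal) for 19 named genes in 4 sets of cells (marker shape and colour), with exact conditional intervals, a solid line at equality and dotted lines at 2-fold. Krt32, S100a3, Vsig8, Id1, Fos and Atf3 lie to the right and Krt83, Mki67, Top2a and Kit to the left in each set, whereas Lef1 and Krt36 change sides with depth.

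Signalling lists are read beside the 6.08% of all genes called higher and 5.6% called lower, and counts near these shares are no result about the list. Of 20 WNT response genes 1 was higher, the stem cell receptor Lgr5, and 1 lower, the receptor Fzd5, with a median log2 ratio of -0.32. At 3000 to 8000 UMIs none (0) of 19 was called, beside 2.83% of all genes higher and 2.05% lower, and the median was 0.32. Axin2, a feedback target, was 89.3 and 48.2 CPM, with log2 ratios of -0.89, -0.78, -0.08 and -0.14. Wif1, a WNT inhibitor also made by the dermal papilla, was 340.1 and 428.3 CPM in members but 46.5 and 20.2 in the stricter set. Of 19 BMP pathway genes 3 were higher, Id1, Id4 and the antagonist Grem1, and 0 lower, with a median of 0.28. Id1, a direct BMP target, was 66.4 CPM in Con and 163.5 in TP, or 2.46-fold (2.33 to 2.60), above 2-fold in each set, and 43.4 and 96.9 CPM in endothelial and immune cells. Of 16 Notch pathway genes none (0) passed 2-fold. The ligand Jag1 and receptor Notch1 were at 414.3 and 433.1 CPM in Con and 265.7 and 254.7 in TP, with log2 ratios of 0.53 and 0.15 at 3000 to 8000 UMIs. Of 10 hedgehog response genes tested Gas1 was higher. In the stricter set Gli1, Gli2 and Hhip were lower, beside 5.3% of all genes called higher and 5.44% lower in that set. The list's median was -0.41 in members and 0.24 at 3000 to 8000 UMIs. Of 15 growth factor genes tested the IGF-binding proteins Igfbp2 and Igfbp3 were higher, and the ligand Fgf5 and the ectodysplasin receptor Edar lower.

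Mki67 and Top2a were lower in TP in each set without passing 2-fold. Mki67 was 443.0 CPM in Con and 229.2 in TP, or 0.517-fold (0.501 to 0.534), and Top2a, a topoisomerase of dividing cells, 420.6 and 243.9, a ratio of 0.580. Their log2 ratios were between -0.97 and -0.52 in the 4 sets. After thinning to 1000 UMIs Mki67 had a UMI in 29.5% of members in Con and 16.8% in TP, and in 23.0% and 7.46% of endothelial and immune cells. The 26 G2 and M phase genes had a median of -0.68 and 1 called lower, and the 24 S phase genes a median of -0.32 and none (0) called, beside -0.20 over all genes and 5.6% of genes called lower. Of 15 cell cycle exit genes 2 were higher, beside 6.08% of all genes, Cdkn1c, a cyclin-dependent kinase inhibitor, and Btg2, an antiproliferative factor.

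Immediate-early genes had the largest median of the 25 gene lists after the stress keratins. Counts of these lists stand beside 6.08% of all genes called higher and 5.6% lower among members, and 1.77% and 2.66% in the stricter set of 3000 to 8000 UMIs. Of 21 genes of this list 14 were higher in TP and 0 lower, with a median of 1.65, and 12 of 18 were higher in the stricter set of 3000 to 8000 UMIs. Fos was 418.2 CPM in Con and 1729 in TP, a ratio of 4.13, and Atf3 110.6 and 457.6, with log2 ratios between 1.85 and 2.29 in the 4 sets. In endothelial and immune cells Fos was 1062 and 2479 CPM and Atf3 394.6 and 1228, higher than in members in either library. All 4 stress keratins tested were higher, and 2 of 12 heat shock chaperones, Hspb1 and Dnajb1. Of 12 steroid-responsive genes Zbtb16, Per1, Klf9 and Cebpd were higher, Per1 in each of the 4 sets. None (0) of the 8 steroid enzymes passed 2-fold, and Srd5a1, a steroid reductase that makes dihydrotestosterone, was 31.1 and 38.7 CPM. Of 17 interferon-stimulated genes 5 were higher, among them B2m, and 1 lower.

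Calls of adhesion and hardening genes stand beside 6.08% of all genes called higher and 5.6% lower among members, and 2.83% and 2.05% at 3000 to 8000 UMIs, where calls were fewer over all genes. Of 13 desmosome genes 1 was higher, Perp, at 957.8 and 1943 CPM, and at 3000 to 8000 UMIs none (0) was. Of 18 hardening enzymes and proteins of the shaft 10 were higher and 2 lower, Padi1 and Padi4, and at 3000 to 8000 UMIs 2 of 15 were higher. Tchh, which stiffens the inner root sheath and medulla, was 1176 and 763.4 CPM, lower in each set. Of 10 desquamation and protease genes 4 were higher, among them Klk7 at 31.2 and 206.0 CPM, against 30.2 and 265.4 in endothelial and immune cells. Krt71, which the rule used with a limit, was 721.2 and 210.0 CPM in members and lower in each set, and 1161 and 694.0 CPM in endothelial and immune cells.

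Metabolic and other lists are given beside the 6.08% and 5.6% of all genes called higher and lower. None (0) of 31 oxidative phosphorylation genes passed 2-fold, with a median of 0.23 that became -0.38 at 3000 to 8000 UMIs. Of 19 glycolysis genes 1 was higher, the lactate carrier Slc16a1. Of 20 cholesterol synthesis genes tested Msmo1 was higher, and the list's median was 0.34. Of 11 metallothionein and zinc genes 1 was lower, the zinc exporter Slc30a1. Of 8 potassium channel genes Kcnb2 was higher and Kcnk1 and Kcnk5 lower. Of 27 axon guidance genes 3 were higher, Sema3a, Epha3 and Epha7, and 2 lower, the netrin Ntn1 and its receptor Dcc. Dcc was 284.5 CPM in Con and 103.7 in TP in members, but 20.8 and 2.72 in the stricter set. In all other kept cells it was 448 and 112 CPM.

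**Figure D5:**
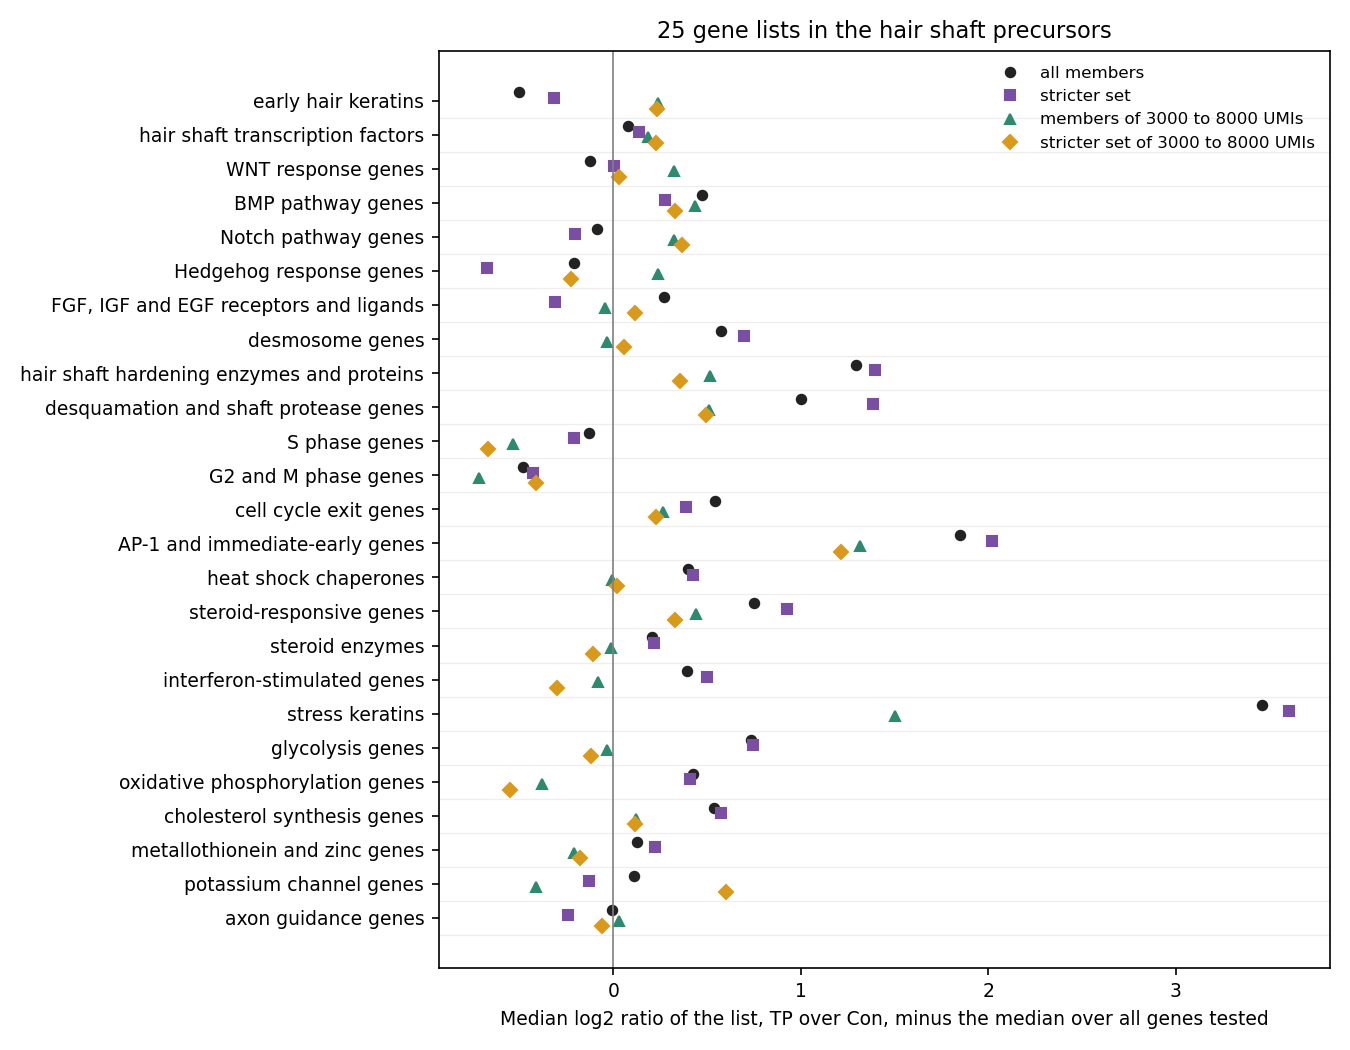
Median log2 ratio of TP over Con of each of 25 gene lists minus the median over all genes tested (horizontal axis), in 4 sets of cells. Immediate-early genes lie to the right of 0 and G2 and M phase genes to the left in each set, while early hair keratins and oxidative phosphorylation genes lie on different sides at different depths. Points with under 3 genes tested are left out.

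Some abundant genes of the members that are on none of the lists were lower in TP, named after their values were seen. Dach1, a transcriptional repressor, was 803.1 CPM in Con and 242.5 in TP, and 929.4 and 332.5 in the stricter set, but its log2 ratio was -0.37 in members of 3000 to 8000 UMIs and -0.10 in the stricter set of that depth. Hivep3, a zinc finger protein, was 571.2 and 217.1 CPM in the stricter set, with -0.45 and -0.16 at 3000 to 8000 UMIs. Adamtsl1, a secreted matrix protein, was 150.2 CPM in members in Con and 51.7 in TP, with log2 ratios of -1.54, -1.98, -0.47 and -0.45. It was 35.99 and 16.5 CPM in Shh-positive cells, 282.0 and 143.4 in late hair keratin cells and 11.1 and 3.71 in inner root sheath keratin cells, but higher in TP over all other kept cells, at 24.1 and 34.2. Cdh6, a cadherin, was 756.1 and 316.3 CPM in the stricter set and at least 2-fold lower in each of the 4 sets.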

How the data were processed

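Single-cell RNA libraries of Con and TP skin, 1 pooled library of 15 mice each, were used as the authors deposited them: raw UMI counts per gene and barcode, made with Cell Ranger 8.0.1 against mm10 per the labels. Depth is given with the results. Barcodes were filtered and members chosen by the stated rule, and the members, gene lists and comparisons were chosen with earlier results of these data known. UMIs were summed per library and set of cells and scaled to CPM. Log2 ratios carried a pseudocount of 1 UMI and genes needed 50 UMIs. Cells are not replicates, so no test was run. Named genes were the 12 largest and 12 smallest ratios and the 20 leading genes of members with at least 200 UMIs, and members of 25 fixed lists. Doublets were called by artificial doublets (30 components, 7.5% removed) as an alternative only, which marked 16.7% of members in Con and 20.3% in TP. The ratio script was tested on simulated data. Python 3.11.15, scipy 1.17.1, scikit-learn 1.9.0 and edgeR 4.0.16 (TMM factors only) were used. Krt85 and Sts were not analysed here. Some genes of the hedgehog and cholesterol lists are not reported here.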

Additional observations from a re-analysis of the deposited data

How the results depend on the processing

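With 1 pooled library per group, differences between mice, digestions and sequencing runs cannot be told apart from the treatment, and depth differed with the group. No paired analysis was possible because each group was 1 library. The stricter set, its restriction to 3000 to 8000 UMIs, the filter on endothelial and immune levels and the thinned matrix lineage shares were chosen after seeing the data. The share of kept cells, TP over Con, was 0.517. Over all kept cells it was 0.295 and 0.272 with cells thinned to 1000 and 2000 UMIs, 0.310 in cells of 3000 to 8000 UMIs, 0.623 with at least 2 rule genes, 0.627 with a mitochondrial limit of 5%, 0.359 without members that had 2 markers of a non-epithelial class, 0.566 in the stricter set and 0.346 in the stricter set of 3000 to 8000 UMIs. Among matrix lineage cells it was 0.998 over all UMIs and 1.02 (0.933 to 1.11) at 3000 to 8000 UMIs. After thinning to 1000 and 2000 UMIs it was 0.919 (0.834 to 1.01) and 0.926 (0.857 to 1.0003).

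The summed early hair keratins, 0.715, turned to 1.14 and 1.11 with cells thinned to 1000 and 2000 UMIs, to 1.10 at 3000 to 8000 UMIs and to 1.17 in the stricter set of that depth. The ratio was 0.832 with at least 4 rule genes, 0.561 with at least 2, 0.796 with the 5% mitochondrial limit, 0.789 without members with non-epithelial markers, 0.816 with TMM, 0.817 with median of ratios factors and 0.878 in the stricter set. The cause was not tested.

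The genes at least 2-fold higher and lower, 869 and 800, numbered 197 and 273 at 1000 UMIs, 267 and 369 at 2000 UMIs, 341 and 247 at 3000 to 8000 UMIs, and 315 and 245 without members with non-epithelial markers. They numbered 1180 and 457 with TMM, 1181 and 457 with median of ratios factors, 2757 and 2651 with at least 1 UMI, 582 and 395 with at least 200 UMIs, and 259 and 55 with a pseudocount of 0.1 per 10000 UMIs. In the stricter set they were 175 and 263 at 3000 to 8000 UMIs. They were 34 and 168 among genes above the endothelial and immune level in the library where the gene was higher. Leaving out members with 2 markers of a non-epithelial class, without thinning, kept 4823 of 7182 members in Con and 821 of 1762 in TP. Fewer UMIs or cells leave fewer genes tested.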
